A study of Mus musculus with 52 samples.

Results

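The forkhead factor genes analysed here are 37 mouse genes of the Fox family, each encoding a transcription factor with a forkhead DNA-binding domain, out of 24263 gene intervals kept from the deposited gene table. They were chosen by symbol from the mm10 annotation and not by a measured value, though earlier results of these data were known when the list was made. All 37 were located. Of these intervals, 21 equalled a RefSeq gene, 2 a GENCODE gene and 2 a GENCODE transcript, 11 were matched by shared length, and Foxe1 was taken as the interval that lies inside its RefSeq gene. The study profiled histone H3 lysine 27 marks, RNA polymerase II, Med1 and H3.3 by chromatin immunoprecipitation in 52 libraries, 43 from naive mouse embryonic stem cells (mESCs, C57BL6/129Sv background, kept in LIF with GSK3 and MEK1 inhibitors) and 9 from epiblast-like cells (EpiLCs) differentiated for 48 hours. The genotypes were control cells (ABE), clones with mutated canonical H3K27 (cK27R), clones with all H3K27 mutated (pK27R), SUZ12 knockout cells (SUZ12KO), and, for the H3.3 libraries, an H3.3 knockout and knockout clones carrying wild-type (pK27WT) or mutated H3.3. The clones limit these cells as a model, since each mutant group is at most 2 clones, and 16 of the 34 groups have 1 library. The deposited tables used here hold no value per library, so no genotype enters any comparison and signal at these genes in mutant or control cells was not analysed here.

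What the tables hold is where enhancers lie. One lists 8794 enhancers of mESCs and another 16576 enhancers of EpiLCs, both taken by the authors from earlier publications and moved to mm10, and the gene table gives the transcription start site (TSS) of each gene as its 5' end. An enhancer was tied to the gene whose TSS lay nearest its centre, provided that this TSS was within 50 kb of the enhancer's edge. A tie describes position and shows no regulation. Each list is a single fixed set without replicates, so counts for forkhead genes are given beside the same counts over all genes, with no test. The mESC and EpiLC sets were defined in different studies by different criteria, so a difference between them cannot be told apart from a difference in definition.

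Forkhead proteins bind DNA through a winged-helix fold, and most recognise a core with the letters TGTTTAC. Members differ mainly in where they are expressed and in the partners they bind. Some act in the early embryo: FoxD3 maintains pluripotent and neural crest progenitors, FoxH1 carries the Nodal signal with Smad proteins, and FoxO factors are held in the cytoplasm when insulin and growth factor signalling is active. FoxA factors open compact chromatin in endoderm, FoxC and FoxF factors act in mesoderm, and the FoxK, FoxN, FoxP and FoxM factors include broadly expressed regulators of metabolism, repression and the cell cycle.

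Forkhead genes carried an enhancer more often than genes in general under this rule. Of the 37 genes, 12 had at least 1 mESC enhancer (32.4%), beside 18.9% of all genes and 19% of protein-coding genes. With EpiLC enhancers the count was 17 (45.9%), beside 31.2% of all genes and 32.1% of protein-coding genes. Together 16 mESC and 29 EpiLC regions were tied to them, or 0.432 and 0.784 per gene, where all genes had 0.222 and 0.479. The median forkhead gene had 0 regions in either table, as had the median gene. Both tables contributed to 10 forkhead genes (27%), beside 12.1% of all genes.

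The 10 genes with regions in both tables were Foxa2, Foxd3, Foxd4, Foxk1, Foxn2, Foxn3, Foxo1, Foxo3, Foxo6 and Foxp4. Foxd1 and Foxn4 had mESC regions only, 1 each. EpiLC regions only, again 1 each, were found for Foxb1, Foxh1, Foxi1, Foxj1, Foxj2, Foxo4 and Foxp1. The remaining 18 had none: Foxa1, Foxa3, Foxb2, Foxc1, Foxc2, Foxd2, Foxe1, Foxe3, Foxf1, Foxf2, Foxj3, Foxk2, Foxl1, Foxl2, Foxm1, Foxn1, Foxp2 and Foxq1. At the top stood Foxk1 and Foxp4 with 6 regions each over both tables and Foxd3 with 5, so 3 forkhead genes (8.11%) reached 5 regions, beside 1.87% of all genes.

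**Figure D1:**
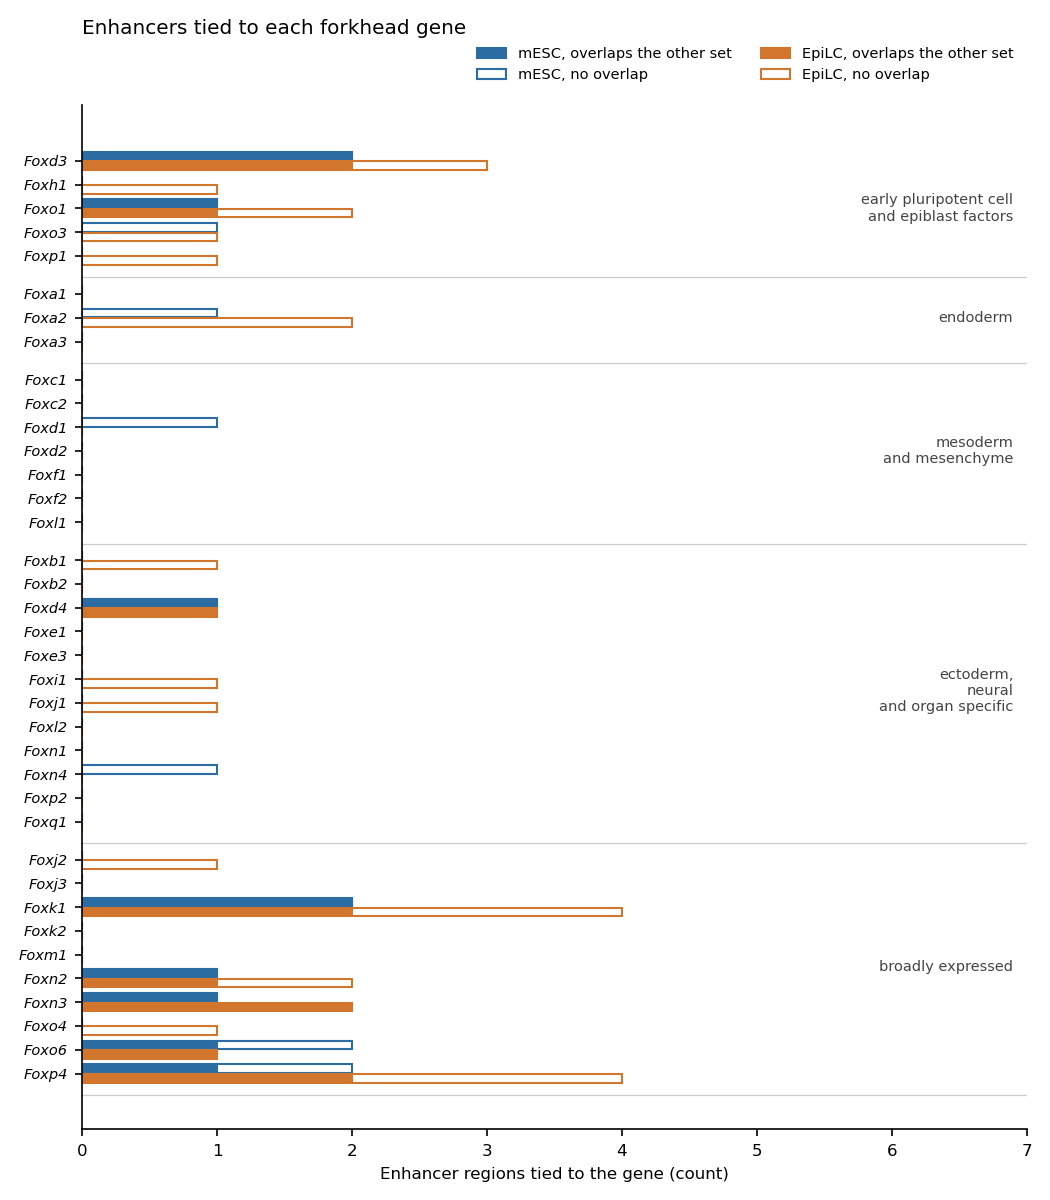
Number of enhancer regions (x axis, count) tied to each of the 37 forkhead genes (y axis), grouped by role, with mESC regions in blue and EpiLC regions in orange. Filled lengths are regions that overlap a region of the other table and open lengths those that do not. Foxk1 and Foxp4 have 2 mESC and 4 EpiLC regions each, and 18 genes have no bar.

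By role, the regions were gathered at the early embryo factors and at the broadly expressed members. These role groups were chosen with earlier results of these data known, so the contrast between them is a description only. All 5 early factors (Foxd3, Foxh1, Foxo1, Foxo3 and Foxp1) had an EpiLC region and 3 of them an mESC region, with 8 and 4 regions in all, or 1.6 and 0.8 per gene. Of the 10 broadly expressed members, 7 had EpiLC (70.0%) and 5 had mESC regions (50.0%), 15 and 8 in all (1.5 and 0.8 per gene). This last list includes Foxo6, which is known mainly from brain. The 3 endoderm genes were represented by Foxa2 alone. Of the 7 genes of mesoderm and mesenchyme 1 had a single mESC region and none an EpiLC region. Of the 12 genes of ectoderm, nervous system and single organs, 2 had an mESC region (16.7%) and 4 an EpiLC region (33.3%), 1 each. Over all genes these shares were 18.9% and 31.2%. The early and the broadly expressed groups also had the longest genes of the 5 role groups, with median lengths of 81.8 and 49.9 kb beside 2.96 to 5.49 kb in the others, and the widest stretches nearest to a TSS (medians of 100 and 69.9 kb beside 55.8 to 59.0 kb). The part of length and spacing in the contrast between roles was not tested.

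**Figure D2:**
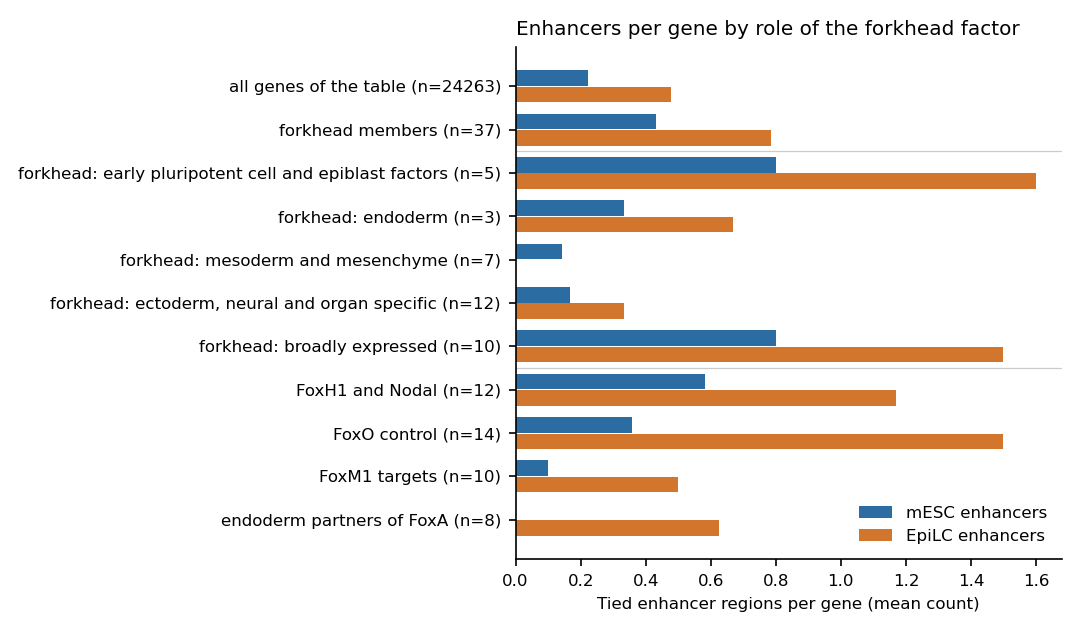
Mean number of tied enhancer regions per gene (x axis) for all 24263 genes, the 37 forkhead genes, their 5 role groups and 4 lists of pathway genes (y axis), with mESC enhancers in blue and EpiLC enhancers in orange. The early and the broadly expressed groups stand at 0.8 mESC regions per gene, beside 0.222 over all genes, and the mesoderm group has no EpiLC bar.

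Foxd3, on the plus strand at chr4:99656299-99658671, had regions on both sides. The upstream mESC enhancer, chr4:99635813-99642646, is intergenic, spans 6834 bp and ends 13.7 kb before the TSS. It shares 1670 bp with an EpiLC enhancer of 2475 bp at chr4:99640977-99643451, which is 67.5% of the EpiLC region and 24.4% of the mESC region. Downstream, an mESC enhancer of 5662 bp (chr4:99670090-99675751, in an intron of Gm12682) contains the whole of a 775 bp EpiLC enhancer (chr4:99674652-99675426). The region closest to the TSS was in the EpiLC table alone: chr4:99649502-99651101, 1600 bp, intergenic and 5.20 kb upstream. Thus the 2 mESC regions of Foxd3 each overlapped a shorter EpiLC region, over 24.4% and 13.7% of their length. The third EpiLC region had no mESC overlap.

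To show what these elements look like, 4 stretches of 300 bases are printed from the mm10 assembly (GRCm38.p6, plus strand, 5′ to 3′), none of which touches an exon. They were chosen after their motif matches had been seen, from genes with 3 or more regions, and stand for segments listed in both tables (Foxd3, Foxn2) and in the mESC table alone (Foxp4, Foxo6). Capitals mark the motif letters found on either strand: the forkhead core TGTTTAC, the octamer that Oct4 binds, with the letters ATGCAAAT, and AAGGTCA, which is bound by Esrrb, a nuclear receptor of naive pluripotent cells. A match on the minus strand is printed as its reverse complement, GTAAACA for the forkhead core.
Foxd3, centre of the shared upstream segment, chr4:99641661-99641960: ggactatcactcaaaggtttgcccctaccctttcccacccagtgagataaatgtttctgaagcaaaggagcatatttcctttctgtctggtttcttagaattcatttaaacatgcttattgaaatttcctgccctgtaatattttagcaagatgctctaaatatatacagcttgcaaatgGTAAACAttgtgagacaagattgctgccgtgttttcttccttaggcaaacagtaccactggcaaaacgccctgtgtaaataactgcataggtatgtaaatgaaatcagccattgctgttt
Foxn2, centre of the shared upstream segment, chr17:88404610-88404909: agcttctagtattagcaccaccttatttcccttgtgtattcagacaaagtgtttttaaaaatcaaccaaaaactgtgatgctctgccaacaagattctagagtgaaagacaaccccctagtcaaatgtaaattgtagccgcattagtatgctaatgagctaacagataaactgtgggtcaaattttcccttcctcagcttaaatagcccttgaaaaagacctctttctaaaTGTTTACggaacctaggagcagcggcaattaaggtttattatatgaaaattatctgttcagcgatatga
Foxp4, centre of the intronic mESC enhancer, chr17:47914717-47915016: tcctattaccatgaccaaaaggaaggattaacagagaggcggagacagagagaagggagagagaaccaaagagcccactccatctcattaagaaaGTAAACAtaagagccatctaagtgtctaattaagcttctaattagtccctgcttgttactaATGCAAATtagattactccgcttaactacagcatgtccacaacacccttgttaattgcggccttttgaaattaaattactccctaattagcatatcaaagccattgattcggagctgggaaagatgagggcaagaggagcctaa
Foxo6, centre of the intronic mESC enhancer, chr4:120271243-120271542: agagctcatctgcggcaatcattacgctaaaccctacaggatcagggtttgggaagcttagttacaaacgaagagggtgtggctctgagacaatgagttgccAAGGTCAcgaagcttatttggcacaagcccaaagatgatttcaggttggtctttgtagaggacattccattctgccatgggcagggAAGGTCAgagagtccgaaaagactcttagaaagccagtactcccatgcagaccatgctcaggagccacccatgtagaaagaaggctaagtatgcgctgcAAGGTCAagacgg
The Foxd3 stretch and the Foxn2 stretch each hold 1 forkhead core. In the Foxp4 stretch a forkhead core stands before an octamer, and the Foxo6 stretch holds 3 AAGGTCA matches on the plus strand. A match is a run of letters and does not show that a factor binds there.

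Foxh1, a partner of Smad proteins in Nodal signalling, lies on the minus strand at chr15:76668224-76669948 among closely packed genes. A single EpiLC enhancer of 4975 bp, chr15:76666552-76671526, covers its whole interval of 1725 bp, and no mESC region lay closer than 217 kb. Of the 6 EpiLC regions within 50 kb of its TSS, the others were nearer to Lrrc14, Ppp1r16a, Slc39a4, Tonsl or Vps28. The stretch of chromosome nearest to the Foxh1 TSS measured only 5.52 kb.

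Foxo1 and Foxo3 encode the FoxO factors named above. Upstream of Foxo1 (plus strand, chr3:52268337-52350109), an mESC enhancer of 1012 bp at chr3:52253787-52254798 lies wholly inside an EpiLC enhancer of 3525 bp at chr3:52253027-52256551. A second EpiLC region, chr3:52257477-52258501, follows 9.84 kb before the TSS without an mESC counterpart. All 3 are intergenic. At Foxo3 (minus strand, chr10:42185786-42276742) the tables pointed to different places: the EpiLC region of 2775 bp, chr10:42276052-42278826, covers the TSS, while the mESC region of 409 bp, chr10:42254437-42254845, lies in an intron 21.9 kb downstream.

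Foxp1, a repressor with a form spliced in pluripotent cells, has an interval of 596 kb on the minus strand, chr6:98925342-99520993. Only 1 region was tied to it, an EpiLC enhancer of 1375 bp at chr6:99522752-99524126, which lies 1.76 kb upstream of the TSS. The centre of this region falls within 1 kb of a GENCODE TSS of Foxp1. The Foxp1 interval, however, contains 7 mESC and 7 EpiLC regions, every one beyond the 50 kb limit. Of these, 4 in each table overlap a region of the other table. The 4 overlapping mESC regions lie 256, 280, 491 and 507 kb from the TSS. These distances are from the TSS of the deposited interval alone. RefSeq places further Foxp1 promoters inside the interval, with upstream sequence at chr6:99266516-99266765 and chr6:99028299-99028548. The EpiLC regions 254 and 490 kb from the TSS cover these stretches, so not every internal region is far from a Foxp1 promoter. Among all 1079 genes longer than 200 kb the median was 1 region in each table, and 7 or more were found in 1.2% of them for mESC and 5.75% for EpiLC enhancers. The other long forkhead gene of this kind is Foxn3 (255 kb), with 5 mESC and 9 EpiLC regions inside. Foxp2, which acts in neurons of speech and motor circuits, spans 541 kb and holds 1 mESC and 0 EpiLC regions. Which of these internal regions act on the gene that holds them was not tested.

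**Figure D3:**
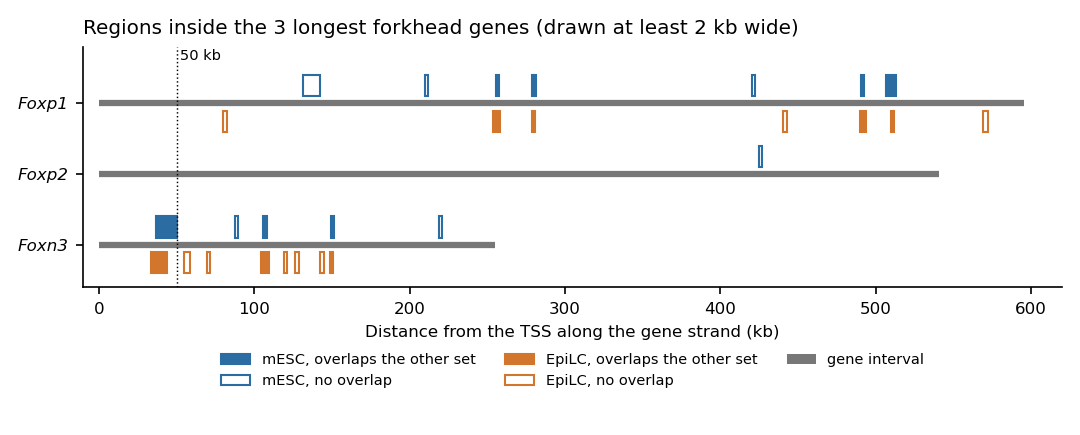
Enhancer regions inside the intervals of Foxp1, Foxp2 and Foxn3 (y axis) by distance from the TSS along the gene strand (x axis, kb), with mESC regions above and EpiLC regions below each grey gene line, filled where they overlap the other table and drawn at least 2 kb wide. The dotted line marks the 50 kb limit, and all 14 regions within Foxp1 lie to its right.

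Foxa2, a factor of definitive endoderm, node and floor plate, was the endoderm gene with regions (minus strand, chr2:148042877-148046969). Its mESC enhancer, chr2:148029118-148029710, has 593 bp and lies 17.3 kb downstream in an intron of 9030622O22Rik. Its EpiLC regions, of 375 and 325 bp, stand 6.26 and 6.81 kb upstream, both within 1 kb of a TSS of the noncoding gene Gm27420. None of the 3 overlaps a region of the other table. For its relatives the nearest regions were farther away: Foxa1 had an mESC region at 74.0 kb and its nearest EpiLC region at 760 kb, and for Foxa3 the distances were 268 kb (mESC) and 160 kb (EpiLC).

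Among mesoderm genes, Foxd1, a marker of kidney stroma, had 1 mESC region of 935 bp at chr13:98358273-98359207. It lies 4.03 kb downstream of the TSS, past the end of the deposited gene interval, and its centre falls in a UTR of Foxd1 in GENCODE. Several forkhead genes without regions lie within 100 kb of each other, some with TSSs of other genes between them. On chromosome 8, Foxf1, Foxc2 and Foxl1 follow within 31.8 and 11.5 kb from TSS to TSS. Foxq1 and Foxf2 are 67.6 kb apart on chromosome 13, and Foxd2 and Foxe3 17.1 kb apart on chromosome 4. None of these 7 genes had a tied region, and the nearest mESC region to the chromosome 8 group lay 412 kb from the Foxf1 TSS.

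In the group of ectoderm and organ factors, Foxd4 had overlapping regions directly upstream. Its mESC region of 660 bp and EpiLC region of 650 bp share 215 bp and lie 0.903 and 0.468 kb before the TSS. Foxn4, needed in retinal and spinal progenitors, had 1 mESC region of 549 bp at 1.62 kb upstream. EpiLC regions stood 44.0 kb downstream of Foxb1, a hypothalamic factor, and 38.0 kb downstream of Foxi1, a factor of inner ear and ionocytes. At Foxj1, the regulator of motile cilia, an EpiLC region of 5750 bp begins 4.28 kb downstream and covers 373 bp of the gene's 3' end.

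Foxk1, a repressor in muscle progenitors and of autophagy genes, lies on the plus strand at chr5:142401497-142462015. One shared position lies in its intron: an mESC enhancer of 693 bp, chr5:142410309-142411001, is wholly inside an EpiLC enhancer of 1750 bp. The other is at the edge of the window, 48.8 kb upstream, where an mESC region of 353 bp and an EpiLC region of 875 bp share 104 bp. EpiLC regions without mESC overlap were an intergenic one of 7875 bp at chr5:142366302-142374176 and an intronic one of 4000 bp at chr5:142413427-142417426. The 7875 bp region is the longest EpiLC region of any forkhead gene. In bases, the EpiLC regions of Foxk1 cover 14.5 kb and its mESC regions 1.05 kb.

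Foxp4, expressed in lung, gut and nervous system among others, showed the reverse in bases, 23.1 kb in mESC regions and 9.68 kb in EpiLC regions. Most of this is 1 mESC enhancer of 22213 bp, chr17:47876587-47898799, within the gene (minus strand, chr17:47867133-47924632). Its centre falls within 1 kb of an internal GENCODE TSS of Foxp4, as does that of a tied EpiLC region of 4375 bp. The 22213 bp region overlaps 3 EpiLC regions, of which 2 were tied to Foxp4 and 1 to the neighbouring gene Mdfi. It shares 7388 bp with them (33.3%). The median mESC enhancer of the whole table has 711 bp. A second mESC region, chr17:47914423-47915311, lies in an intron, has no EpiLC overlap and holds the Foxp4 stretch printed above. An EpiLC region of 2575 bp covers the TSS, and another of 400 bp lies 49.4 kb upstream.

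Foxn2 and Foxn3, the second a repressor linked to the cell cycle checkpoint, each had 1 mESC region and both of these overlapped EpiLC regions. That of Foxn2, chr17:88404333-88405188 (856 bp, intergenic, 35.5 kb upstream), lies wholly inside an EpiLC region of 1475 bp. It gave the Foxn2 stretch above, and its forkhead core is the one match counted for Foxn2 in both tables. A second EpiLC region of Foxn2 lies in its intron 1.94 kb downstream of the TSS. The mESC region of Foxn3 spans 13758 bp (chr12:99399506-99413263) inside the gene and shares 6287 bp with 2 EpiLC regions of 2775 and 6700 bp. The centre of the 6700 bp region falls within 1 kb of an internal GENCODE TSS of Foxn3. Foxo6 had 2 mESC regions: chr4:120270999-120271787 in an intron, with no EpiLC overlap, and one 45.5 kb upstream that shares 92 bp with an EpiLC region of 400 bp.

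Single EpiLC regions were found at Foxj2 (500 bp, 0.068 kb downstream of the TSS) and Foxo4 (3300 bp, 7.93 kb upstream). For these genes neighbours took further regions: of 4 EpiLC regions within 50 kb of each TSS, 1 was tied to each. Foxm1, which drives the expression of mitotic genes, had 1 mESC and 1 EpiLC region within 50 kb, at 45.6 and 45.1 kb, both nearer to Nrip2. Foxj3 had 2 such mESC regions, both upstream and nearest to the TSS of Rimkla, while 1 further mESC region inside its interval lay past the 50 kb limit. Foxk2 had 1 EpiLC region in reach, nearer to Narf.

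**Figure D4:**
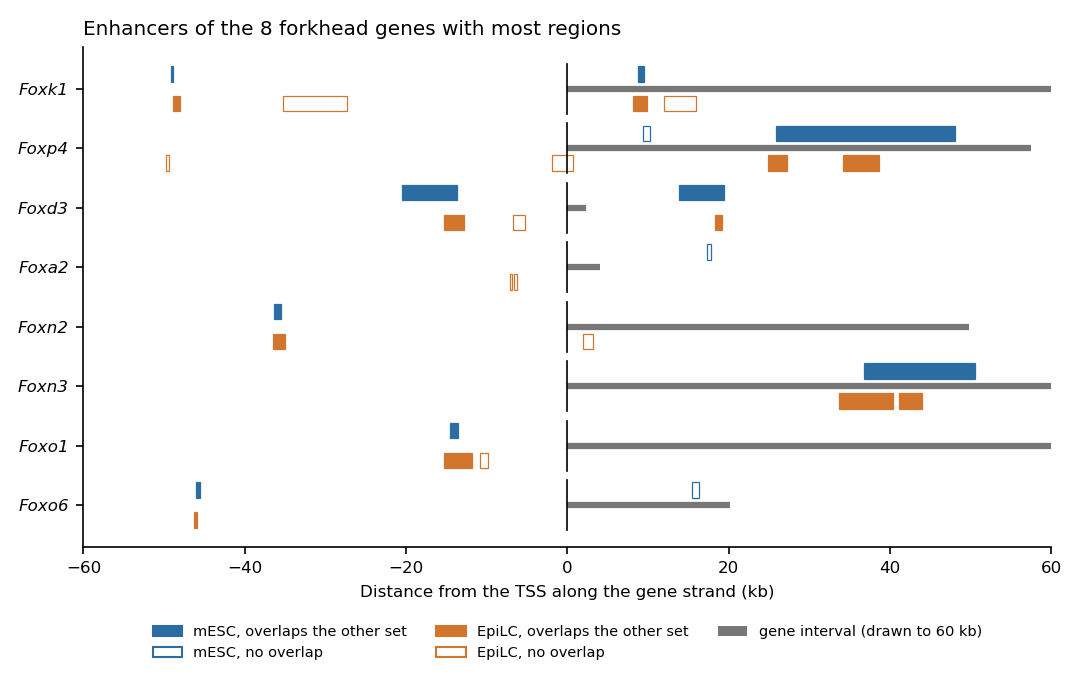
Positions of the tied regions of the 8 forkhead genes with most regions (y axis) by distance from the TSS along the gene strand (x axis, kb), mESC regions above and EpiLC regions below the grey gene interval. Filled boxes overlap a region of the other table and open boxes do not. The 22213 bp mESC region of Foxp4 is the widest box, and the 3 regions of Foxa2 are all open.

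Of the 16 mESC regions, 10 overlapped an EpiLC enhancer (62.5%), beside 46.9% of all mESC enhancers tied to a gene. Of the 29 EpiLC regions, 12 overlapped an mESC enhancer (41.4%), beside 24.8%. These shares rest on few regions and on small overlaps at Foxk1 (104 bp), Foxo6 (92 bp) and Foxd4 (215 bp). When 50% of both regions had to be shared, only the Foxn2 pair was left, 1 of 16 (6.25%, beside 9.57% of tied mESC enhancers) and 1 of 29 (3.45%, beside 4.43%). When each region was reduced to 500 bp around its centre, 5 in each table still overlapped, at Foxd4, Foxk1, Foxn2, Foxo1 and Foxo6 (31.2% beside 26.5% of tied mESC enhancers, and 17.2% beside 12.6% for EpiLC). With a distance limit of 20 kb the mESC share was 50.0%, beside 48.5%, and the EpiLC share 27.8%, beside 22.5%. The pairs at Foxd3, Foxn3 and Foxp4, which include the long mESC regions, did not meet either rule, nor did the upstream pair of Foxk1.

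Median lengths were 822 bp for mESC (353 to 22213 bp) and 1750 bp for EpiLC regions (325 to 7875 bp), beside 736 and 1880 bp for all tied enhancers. The upper quartiles were 2170 bp for mESC regions, beside 974 bp, and 3520 bp for EpiLC regions, beside 3120 bp. The part of region length in the overlap shares was not tested. Centres within 1 kb of an annotated TSS made up 1 of 16 mESC regions (6.25%, beside 12.2%) and 10 of 29 EpiLC regions (34.5%, beside 33.8%). Of the remaining mESC centres, 7 were intergenic, 7 intronic and 1 in a UTR. Among EpiLC centres 13 were intergenic and 6 intronic. Seen along the gene, 7 mESC regions lay upstream and 9 downstream of the TSS. For EpiLC regions the counts were 14 upstream, 12 downstream and 3 over the TSS (Foxh1, Foxo3 and Foxp4).

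Forkhead genes also had more room around them. The stretch nearest to a TSS, counted to 50 kb on each side, had a median of 59.0 kb for forkhead genes and 45.1 kb for all genes. The nearest other TSS was 37.1 kb away at the median, beside 19.6 kb. Per Mb of such stretch they had 6.97 mESC and 12.6 EpiLC regions, beside 4.62 and 10.0. When any enhancer within 50 kb of the TSS was counted, whichever gene was nearest, the gap narrowed for mESC enhancers, to 43.2% of forkhead genes beside 36.1% of all genes and 0.649 regions per gene beside 0.466. For EpiLC enhancers the values were near those of all genes, 56.8% beside 57.5% and 1.24 regions per gene beside 1.26. The excess of EpiLC regions over the genome was therefore present under the nearest-gene rule and not under this one. By distance alone, the nearest EpiLC enhancer lay a median of 45.1 kb from a forkhead TSS, beside 36.1 kb for all genes. For mESC enhancers these medians were 77.1 and 82.8 kb. An EpiLC enhancer lay within 10 kb of 35.1% of forkhead genes, beside 28.3%, and within 100 kb of 70.3%, beside 74.2%.

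Gene length moved with the counts too. The 19 forkhead genes with a region had a median length of 19.6 kb and the 18 without one 3.88 kb. Of 21 members up to 10 kb long, 4 had mESC (19%) and 8 EpiLC regions (38.1%), beside 12.6% and 24.4% of all genes of that length. Among the 8 members longer than 50 kb, 5 had mESC (62.5%) and 6 EpiLC regions (75%), beside 30.6% and 37.9%. For the 8 members in between, 3 had mESC regions (37.5%, beside 19.4%) and 3 had EpiLC regions (37.5%, beside 35.0%). The part of spacing and length in the counts was not tested beyond these values.

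Another limit is which start sites compete for a region. Against all GENCODE genes, noncoding ones included, 7 mESC and 11 EpiLC regions stayed nearest to a forkhead gene. Every one of the 9 mESC and 18 EpiLC regions that moved was then nearest to a noncoding gene. Examples were Gm12688 and Gm23366 at Foxd3 and Gm15556 at Foxp4. The shares of forkhead genes with a region were then 16.2% for mESC, beside 11.8% of all genes, and 21.6% for EpiLC, beside 19.3%. With GENCODE protein-coding genes alone they were 32.4%, beside 18.9%, and 43.2%, beside 32.1%. At the 50 kb limit itself the last region counted was the EpiLC region of Foxp4 at 49.4 kb, and the first left out was another of Foxp4 at 50.2 kb.

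**Figure D5:**
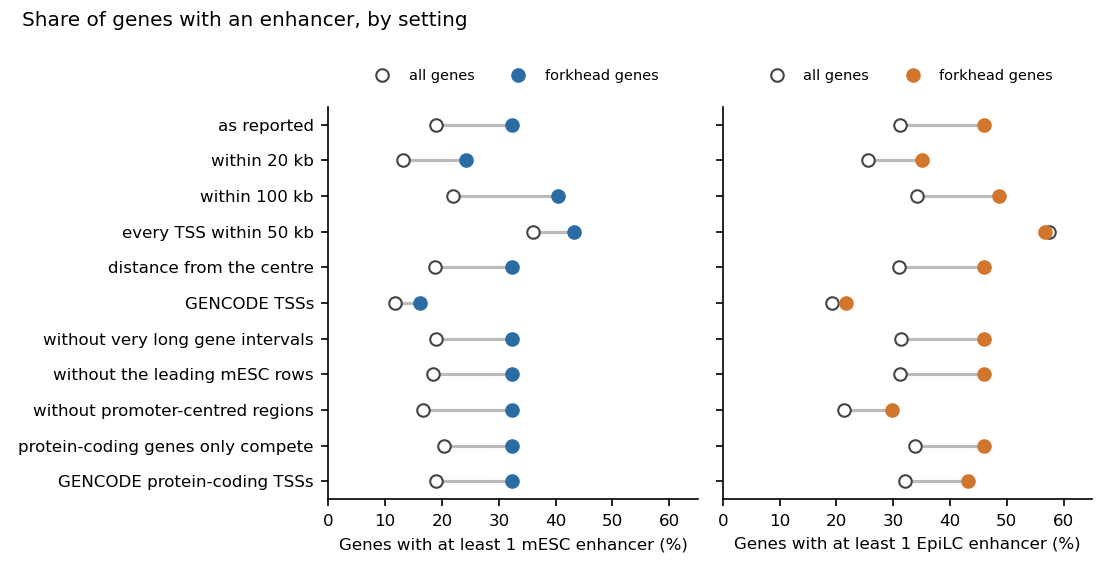
Share of genes with at least 1 tied enhancer (x axis, %) for forkhead genes (filled) and all genes (open) under the reported rule and 10 alternatives (y axis), mESC enhancers left and EpiLC enhancers right. The filled point lies to the right of the open one in each row except for EpiLC enhancers with every TSS within 50 kb, where the shares are 56.8% and 57.5%.

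Sequence content was read in the central 300 bases of each region, on both strands. The forkhead core TGTTTAC was present in 3 of 16 mESC windows (18.8%), beside 6.4% of all mESC windows, and in 2 of 29 EpiLC windows (6.9%), beside 5.56%. The mESC windows were that of Foxn2 and both of Foxp4, so 2 genes account for the 3. The FOXH1 motif AATCCACA was in none of the member windows, beside 1.64% in each table. The octamer ATGCAAAT was in 2 mESC windows (12.5%, beside 8.78%) and 1 EpiLC window (3.45%, beside 3.38%). The SOX motif CTTTGTT was in 1 mESC window (6.25%, beside 18.7%) and 3 EpiLC windows (10.3%, beside 10.0%). The letters AAGGTCA were in 1 mESC window, that of Foxo6 (6.25%, beside 11.9%), and 1 EpiLC window (3.45%, beside 6.42%). Over whole regions some of these directions turned: per kb of mESC region, FOXH1 letters occurred 0.0881 times beside 0.0476 in the table (5 of 16 regions), octamers 0.0705 beside 0.129 and AAGGTCA 0.317 beside 0.295. In EpiLC regions octamers occurred 0.0556 times per kb beside 0.0778. SOX letters turned there as well, at 0.306 beside 0.309, while FOXH1 letters (0.0278 beside 0.0437) and AAGGTCA (0.208 beside 0.229) kept their direction. SOX letters in mESC regions stayed lower, at 0.141 beside 0.397 per kb. The forkhead core kept its direction too, with 0.211 beside 0.165 per kb in mESC regions and 0.236 beside 0.161 in EpiLC regions. In mESC regions, however, 6 of its 12 matches lay in the 22213 bp region of Foxp4, and only 5 of 16 regions held any. In EpiLC regions 17 matches lay in 13 of 29 regions. With so few windows, 1 more match moves a share by several percentage points. The windows were slightly richer in G and C than the tables, with medians of 47.3% beside 45.3% for mESC and 51.3% beside 49.0% for EpiLC.

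RefSeq promoter sequence, 300 bases around the TSS, was available for 23 of the 37 genes. These promoters had a median of 25 CpG dinucleotides, beside 13 over 17686 genes of the table, and a GC content of 65.3% beside 56.3%. The 12 of them whose gene had an enhancer had a median of 18.5 CpG, and the 11 without had 26.

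Genes that work with forkhead factors were read the same way, against the 18.9% of all genes with an mESC region and 31.2% with an EpiLC region. Of 12 genes of FoxH1 and Nodal signalling, 6 had an mESC (50.0%) and 8 an EpiLC region (66.7%), with 7 and 14 regions. The ligand Nodal had 1 mESC and 2 EpiLC regions, its antagonists Lefty1 and Lefty2 had 1 mESC region each with 2 and 3 EpiLC regions, and the target Gsc had 2 and 1. Smad3, a signal carrier, had 0 and 3. Of 14 genes that control FoxO factors, 5 had an mESC (35.7%) and 9 an EpiLC region (64.3%), 5 and 21 regions in all. These 14 genes were long, with a median of 53.8 kb beside 14.6 kb for all genes. Their median stretch nearest to a TSS was 71.0 kb, beside 45.1 kb. Per Mb of such stretch they had 4.89 mESC regions, near the 4.62 of all genes, and 20.5 EpiLC regions, beside 10.0. The kinase genes Akt2 and Sgk1 had 1 mESC and 3 EpiLC regions each. Of 10 targets of FoxM1, 1 (Cdc25b, a mitotic phosphatase) had an mESC region (10.0%) and 5 had 1 EpiLC region each (50.0%). Of 8 endoderm partners of FoxA, none had an mESC region and 3 had EpiLC regions (37.5%): Eomes with 3, and Gata6 and Cer1 with 1 each. Foxh1 and Foxm1 themselves had 0 mESC regions. Per Mb of stretch, the FoxH1 and Nodal genes had 10.8 mESC and 21.6 EpiLC regions. The FoxM1 targets had 3.3 and 16.5, and the FoxA partners 0 and 10.3. The part of length and spacing in these lists was not tested.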

How the data were processed

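Per the submitters' processing notes, the authors used bedtools 2.29.2, Bowtie2 2.3.4.1 and Trimmomatic 0.38 with builds mm10 and dm6. The role of each was not given in the sources used here. Deposited by the authors were 3 region tables holding mm10 coordinates, and 0 columns hold a value per library. Depth is therefore unknown, and the planned limma fit of mutant against control libraries had no values to run on. Per the series' design text, the enhancer sets were defined in earlier publications, and the EpiLC set by H3K27ac, H3K4me1 and p300 peaks. The members, role groups, pathway lists and motifs were chosen with earlier results of these data known.

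Of 24402 gene rows, 120 duplicates and 19 rows off the chromosomes were left out. Rows were named from RefSeq (GRCm38.p6) and GENCODE M21 by exact match or by a shared length of at least 0.8, and Foxe1 by position. Gene starts count from 0: start plus 1 equalled a RefSeq gene in 12038 rows, and the start itself in 329. Enhancer starts were assumed to count the same way. The text names every member and describes the 8 with most regions singly. Neighbours are members with a TSS within 100 kb. Ties, overlaps (from 1 bp) and motif counts were computed in Python 3.11.15 with pandas 2.3.3 and pysam 0.24.0, and tested on simulated data. Alternatives changed the distance limit, the competing TSSs, the regions included and the overlap rule. Both protein-coding settings were added after seeing the data. Libraries in the study were not averaged or compared, and p-values were not computed.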

Additional observations from a re-analysis of the deposited data

How the results depend on the processing

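No paired analysis was possible because the tables hold no value per library. Of 64 alternative values, 47 stayed within 1.5 times the reported count and 17 did not. With a 20 kb limit the forkhead genes had 10 mESC regions (0.27 per gene, beside 0.139 over all genes) and 18 EpiLC regions (0.486 beside 0.345). Of these, 5 in each table overlapped the other, where the mESC overlap share was 50.0% beside 48.5% of all tied enhancers. With all GENCODE TSSs they had 7 mESC regions at 6 genes and 11 EpiLC regions at 8 genes, with 3 overlapping in each table. Per gene these were 0.189 mESC regions, beside 0.129 over all genes, and 0.297 EpiLC regions, beside 0.261. Counting every TSS within 50 kb gave 46 EpiLC regions. Without promoter-centred regions 19 EpiLC regions at 11 genes were left, or 0.514 per gene beside 0.317 over all genes. The share of genes with one was then 29.7%, beside 21.4%. With 50% of both regions shared the overlap fell to 1 region in each table, and with an equal width of 500 bp to 5. The cause of these moves, beyond what each rule removes or adds, was not tested. In 38 of 40 alternatives for region counts and gene shares the forkhead value was above that of all genes. The exceptions were both EpiLC values with every TSS within 50 kb, 1.24 regions per gene beside 1.26 and 56.8% of genes beside 57.5%. These 40 values are not independent, since they recount largely the same regions. Measuring from the centre, or leaving out very long gene intervals or the first 231 mESC rows, changed no forkhead count. The tally therefore does not measure how firm the excess is. For overlap, forkhead shares were below those of all tied enhancers with 50% shared in both tables and, for mESC regions with GENCODE TSSs, at 42.9% beside 44.9%. The counting of enhancer starts leaves each uncertain by 1 bp.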

Other observations

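Beyond the 50 kb limit, 8 mESC and 9 EpiLC regions were nearest to a forkhead gene at up to 100 kb. Counts over all genes were not made for this band alone. With all regions up to 100 kb, forkhead genes had 0.649 mESC regions per gene, beside 0.278, and 1.03 EpiLC regions, beside 0.568. Of those regions, 54.2% (mESC) and 39.5% (EpiLC) overlapped the other table, beside 45.6% and 25.5% of all enhancers so tied. At 3 genes such distant regions overlapped between the tables. Foxd3 had an mESC region of 736 bp 94.3 kb upstream and an EpiLC region of 1400 bp at 93.6 kb, chr4:99561252-99562651. Foxn2 had an mESC region of 1866 bp at 93.2 kb and an EpiLC region of 1250 bp at 93.0 kb. Foxp4 had an mESC region of 828 bp at 51.1 kb and an EpiLC region of 2500 bp at 50.2 kb. The other 11 distant regions overlapped none of the other table. Of these, 3 were nearest to genes with no tied region: mESC regions at 74.0 kb from Foxa1 and 77.1 kb from Foxc1, and an EpiLC region at 54.9 kb from Foxf2. The remaining 8 were nearest to genes that had a tied region, with 3 at Foxn3 and 1 each at Foxa2, Foxb1, Foxd3, Foxp1 and Foxp4, from 54.6 to 89.9 kb away. Whether any of these acts on the gene named was not tested.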
